A study of Mus musculus with 15 samples.

Results

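The genes described are 10 fast-twitch isoforms of the contractile and calcium-handling apparatus of skeletal muscle: Tnnt3, Tnni2, Tnnc2, Mylpf, Myl1, Tpm1, Actn3, Pvalb, Atp2a1 and Casq1. They were taken by name, with no threshold on a measured value, and all 10 were found among the 39179 genes counted in every mouse. RNA-seq was made from quadriceps muscle of 15 C57BL/6 mice in 4 groups, at 2 ages and with 2 genotypes of Mrps5, which encodes a protein of the small mitochondrial ribosomal subunit. The mutant mice were homozygous for the V338Y knock-in, a change that makes mitochondrial ribosomes misread, and the controls were wild-type at Mrps5. The groups held 4 wild-type mice at 3 mo, 4 V338Y mice at 3 mo, 3 wild-type mice at 19 mo and 4 V338Y mice at 19 mo. The mutation is carried in every tissue, and mice are named here by the number in their labels.

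Fast fibers contract quickly because they carry their own forms of myosin, troponin and calcium pump, encoded by genes separate from those used in slow fibers. Troponin on the thin filament senses calcium and moves tropomyosin off the myosin-binding sites of actin, while myosin light chains tune the motor on the thick filament. Calcium is stored by calsequestrin, buffered in the cytosol by parvalbumin and pumped back into the sarcoplasmic reticulum by SERCA. The mouse quadriceps is a predominantly fast muscle, and a mixture of these isoforms at the RNA level reads out its fiber makeup as well as the output of each fiber. In whole muscle, fewer fibers of a type and less RNA per fiber cannot be told apart.

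Before any comparison, 3 properties of the libraries bear on what follows. Total counts ran from 8250653 to 18968132 per mouse, and no member had fewer than 8029 counts in any mouse, so counting error was small beside the spread between mice. The sex transcripts separated the ages: the 8 mice at 3 mo had 0 to 0.575 CPM (counts scaled for library size by TMM) of Xist, which is transcribed from the inactive X chromosome, and 163 to 202 CPM of the Y-linked Ddx3y, whereas the 7 mice at 19 mo had 506 to 631 CPM of Xist and 0 to 0.0827 CPM of Ddx3y. The study's methods call 3 of the 4 groups female, give no sex for the 19 mo V338Y mice, and the labels give none, so age and sex transcripts cannot be told apart in any comparison of 19 mo with 3 mo. Finally, both mice numbered 5 at 19 mo stood apart by their slow and oxidative fiber transcripts, as described with the ratios. Skeletal muscle markers were high in every group, with Acta1 (skeletal actin) at 11492 to 25606 CPM. Mrps5 itself was at 14.96 to 27.5 CPM in all mice, and since V338Y is a point change, its level says nothing about the genotype.

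Start-proximal sequences of a few members are shown because these genes moved together with age, and Atp2a1 against them. RefSeq windows (GRCm38.p6) were found for 7 of the 10 members, and the 250 bases before the start are printed 5′ to 3′ for the only member that was higher at 19 mo (Atp2a1), for the members with the largest decreases in wild-type mice (Myl1 and Tnnc2) and for Pvalb. All 4 lie on the minus strand, at chr7:126463074-126463323, chr1:66945057-66945306, chr2:164779735-164779984 and chr15:78206401-78206650, respectively. The RefSeq start is not always the outermost start in the gene annotation: it lies 348 bases inside the annotated gene for Myl1, whose window is thus wholly within the gene, 233 bases inside for Tnnc2, whose window is almost wholly within it, 35 bases inside for Atp2a1 and at the same base for Pvalb. Capitals mark E-boxes (CANNTG), the letters that myogenic basic helix-loop-helix factors such as Myod1 can bind.
Atp2a1: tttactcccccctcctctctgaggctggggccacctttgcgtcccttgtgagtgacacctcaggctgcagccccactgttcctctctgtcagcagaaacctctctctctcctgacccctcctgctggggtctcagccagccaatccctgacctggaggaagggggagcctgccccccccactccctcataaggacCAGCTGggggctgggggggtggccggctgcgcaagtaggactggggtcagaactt
Myl1: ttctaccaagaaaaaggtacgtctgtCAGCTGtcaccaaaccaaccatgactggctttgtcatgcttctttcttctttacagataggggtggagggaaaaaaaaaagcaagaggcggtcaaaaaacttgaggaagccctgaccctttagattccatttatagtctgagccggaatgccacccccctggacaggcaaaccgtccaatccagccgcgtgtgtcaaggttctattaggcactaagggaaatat
Tnnc2: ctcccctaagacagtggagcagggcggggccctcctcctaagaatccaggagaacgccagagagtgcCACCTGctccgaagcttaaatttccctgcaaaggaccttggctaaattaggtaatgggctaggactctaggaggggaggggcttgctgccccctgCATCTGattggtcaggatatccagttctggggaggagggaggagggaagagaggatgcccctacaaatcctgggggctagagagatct
Pvalb: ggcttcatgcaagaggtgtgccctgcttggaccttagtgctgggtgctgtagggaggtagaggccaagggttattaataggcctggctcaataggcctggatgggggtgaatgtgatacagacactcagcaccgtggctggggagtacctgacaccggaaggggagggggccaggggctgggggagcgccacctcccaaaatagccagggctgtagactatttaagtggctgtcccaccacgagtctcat
At least 1 E-box was present in 6 of the 7 windows, Pvalb being the exception, and in 66.2% of all 32851 promoter windows of the same length. A MEF2 motif, the A/T-rich site of the MEF2 factors, was in 0 of the 7 and in 0.508% of all windows. The A/T-rich CArG box of serum response factor was in 0 and in 1.47%. The letters of a TATA box, TATAAA, were on either strand in the Myl1 window alone and in 12.4% of all. In Myl1 they lie on the opposite strand, read as tttata at position -95, so that its window has no TATAAA in the direction of the gene. Both strands were searched, and a window without these letters says nothing about whether the factor acts on the gene. Tnnt3, Tnni2 and Actn3 were not in the promoter table.

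Per kilobase of exon, the troponins, parvalbumin and Mylpf were the most abundant members in young muscle. In wild-type mice at 3 mo the order was Tnnc2 with 10343 ± 655 TMM-scaled CPM per kb, Tnnt3 with 9412 ± 288, Pvalb with 8781 ± 487, Mylpf with 7313 ± 437, Tnni2 with 5500.2 ± 320, Myl1 with 3332 ± 369, Atp2a1 with 2761 ± 205, Actn3 with 2624 ± 124, Tpm1 with 2128 ± 59.4 and Casq1 with 909 ± 65.9 (mean ± SD, n = 4). The ranges of neighbors overlapped for Tnnc2 and Tnnt3, Tnnt3 and Pvalb, Myl1 and Atp2a1, and Atp2a1 and Actn3, whereas each of the other neighbors was separated in all 4 mice. Young V338Y mice had the same order. At 19 mo and per kilobase of exon, Tnnt3 came first, with 6418 ± 1285 CPM per kb in wild-type mice (n = 3) and 5000.2 ± 975 in V338Y mice (n = 4). Atp2a1, at place 7 in both young groups, was at place 3 in old wild-type mice with 5334 ± 674 CPM per kb and at place 2 in old V338Y mice with 4648 ± 1173. The ranges of Atp2a1, Tnnc2, Mylpf and Tnnt3 overlapped in each old group. The order depended on the length used. With the median length of each gene's coding transcripts in place of all exon bases, a choice made after seeing the data, Tnnt3 came first in young wild-type mice with 14795 ± 453 CPM per kb, followed by Mylpf with 13880.4 ± 830.2, Tnni2 with 12326 ± 717, Tnnc2 with 11820.0 ± 749 and Pvalb with 9472 ± 525. Tpm1, whose 21 transcripts span 6485 bases of exon against a median of 1642 bases, moved from place 9 to place 7 with 8403 ± 235 CPM per kb. On that scale Mylpf came before Tnnt3 in V338Y mice at both ages, with 8153 ± 2059 against 7860.3 ± 1533 CPM per kb at 19 mo, and Atp2a1 was at place 8 in both young groups and at place 3 in both old groups. Taken as raw shares, the 10 genes held 7.86% to 8.98% of all counts in wild-type mice at 3 mo, 8.57% to 9.18% in V338Y mice at 3 mo, 5.37% to 8.19% in wild-type mice at 19 mo and 4.34% to 7.34% in V338Y mice at 19 mo.

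The first question was how the fast isoforms differed between 3 mo and 19 mo in each genotype. In wild-type mice 6 of the 10 members were lower at 19 mo (Tnnt3, Tnni2, Tnnc2, Myl1, Tpm1 and Pvalb), 1 was higher (Atp2a1), and Mylpf, Actn3 and Casq1 did not pass the test. In V338Y mice 9 of 10 were lower and Atp2a1 was again higher. The test was edgeR's quasi-likelihood test, with p-values adjusted by Benjamini-Hochberg over all genes and called under 0.05. Among all genes tested in wild-type mice, 17.8% were called lower and 18.3% higher. The corresponding shares in V338Y mice were 22.5% and 24.4%. The median log2 fold change of the members was -0.57 in wild-type mice, beside 0.02 over all 13657 genes tested, and -1.10 in V338Y mice, beside 0.07 over all 13868. Every 19 mo mouse was below every 3 mo mouse of its genotype for 8 members in wild-type mice, where 21.7% of all genes tested showed that separation, and for 9 members in V338Y mice, where 21.9% did.

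**Figure D1:**
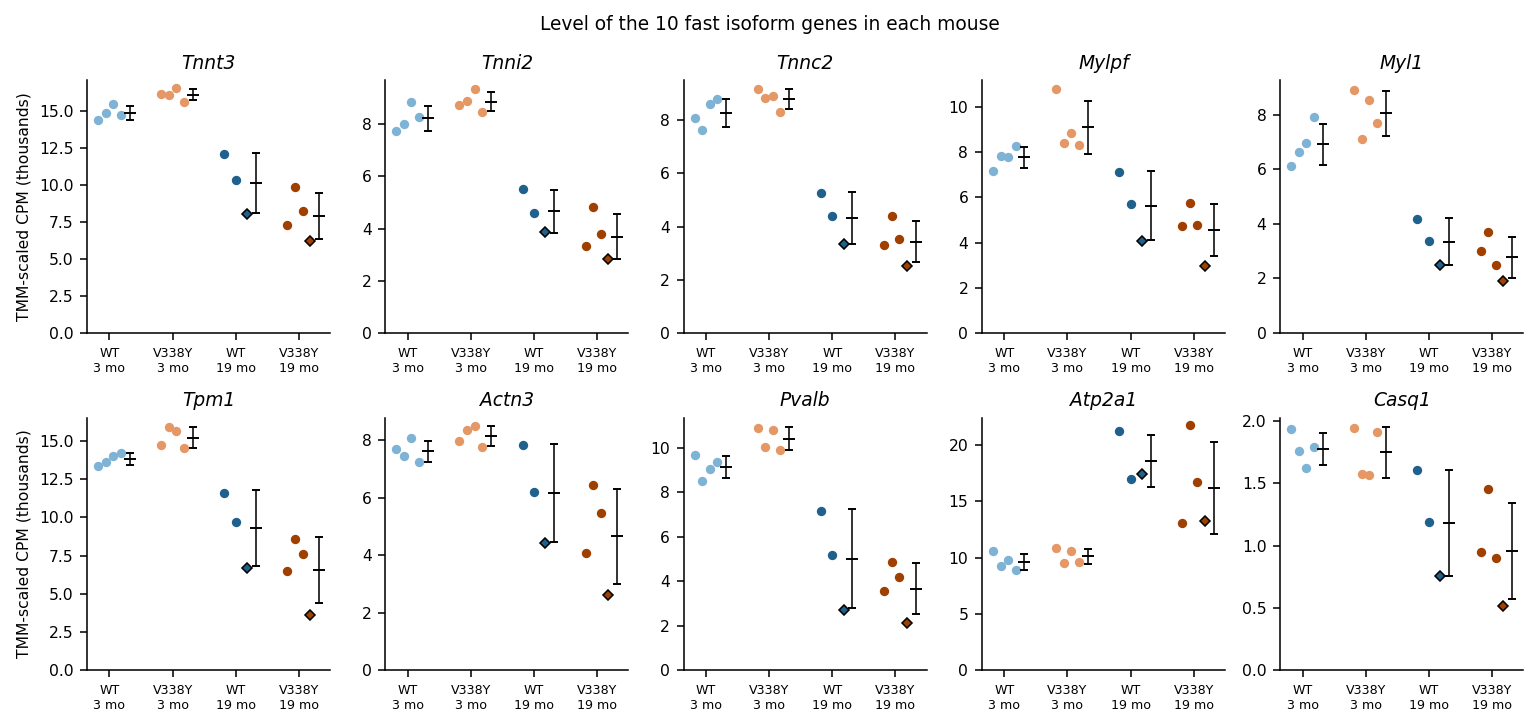
TMM-scaled CPM of each of the 10 genes (y axis, in units of 1000 CPM, from 0) in every mouse of the 4 groups (x axis), with the group mean and SD as black bars. Circles are single mice and diamonds mark mouse 5 of each 19 mo group, which had the lowest value of its group for every gene but Atp2a1. Atp2a1 alone is higher in all 7 mice at 19 mo than in all 8 at 3 mo.

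The troponin subunits form the calcium switch of the thin filament. Tnnt3 encodes fast troponin T, which anchors the complex to tropomyosin (chr7:142498836-142516009, plus strand, GRCm38). It was at 14447, 14908, 15521 and 14719 CPM in wild-type mice 1 to 4 at 3 mo and at 12095, 10345 and 8040 CPM in mice 2, 4 and 5 at 19 mo. In V338Y mice it was at 16154, 16139, 16585 and 15629 CPM in mice 1 to 4 at 3 mo and at 7303, 9884, 8231 and 6243 CPM in mice 2 to 5 at 19 mo. The ages did not overlap in either genotype, and mouse 5 was the lowest at 19 mo in both. The fold change was -0.55 ± 0.16 on the log2 scale (± SE) in wild-type mice (edgeR quasi-likelihood, adjusted p = 0.0248) and -1.01 ± 0.20 in V338Y mice (adjusted p = 0.00267).

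Tnni2, fast troponin I, is the inhibitory subunit, encoded upstream of Tnnt3 on the same chromosome (chr7:142441808-142444410, plus strand). It was at 7745, 8027, 8868 and 8295 CPM in wild-type mice at 3 mo and at 5511, 4601 and 3873 CPM at 19 mo. In V338Y mice the values were 8741, 8904, 9362 and 8488 CPM at 3 mo and 3347, 4827, 3786 and 2836 CPM at 19 mo. Every 19 mo mouse was below every young mouse of its genotype. The fold change was -0.82 ± 0.15 in wild-type mice (adjusted p = 0.0032) and -1.25 ± 0.19 in V338Y mice (adjusted p = 8.51e-04).

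Tnnc2, fast troponin C, is the calcium-binding subunit (chr2:164777161-164779967, minus strand). Its wild-type values were 8065, 7635, 8616 and 8779.8 CPM at 3 mo against 5261, 4408 and 3326 CPM at 19 mo. Its V338Y values were 9161, 8817, 8902 and 8290.0 CPM at 3 mo against 3299, 4411, 3524 and 2514 CPM at 19 mo. Tnnc2 fell the most among the 3 troponin genes in both genotypes, by 0.93 ± 0.17 on the log2 scale in wild-type mice (adjusted p = 0.00313) and by 1.34 ± 0.19 in V338Y mice (adjusted p = 6.18e-04).

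Of the fast myosin light chains, Myl1 passed the test in both genotypes and Mylpf in V338Y mice only, a contrast that the interaction test did not call. DESeq2 called Mylpf in wild-type mice as well (adjusted p = 0.0192). Myl1 encodes the essential light chains of fast myosin (chr1:66924295-66945404, minus strand) and had the largest decrease of all 10 members in both genotypes. In wild-type mice it was at 6119.6, 6626, 6966 and 7932 CPM at 3 mo and at 4190.2, 3369.7 and 2477 CPM at 19 mo. In V338Y mice it was at 8913, 7099, 8531 and 7688 CPM at 3 mo and at 3015, 3692, 2478 and 1901 CPM at 19 mo. The ages were far apart in both genotypes, with a fold change of -1.04 ± 0.19 in wild-type mice (adjusted p = 0.00311) and -1.53 ± 0.22 in V338Y mice (adjusted p = 5.98e-04).

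Mylpf encodes the regulatory light chain that carries the phosphorylation site of the fast motor (chr7:127208890-127214298, plus strand). In wild-type mice it was at 7155, 7833, 7792 and 8285 CPM at 3 mo and at 7116, 5729 and 4064 CPM at 19 mo. Mouse 2 at 19 mo was just below the lowest young mouse. The fold change of -0.46 ± 0.18 did not pass the test in wild-type mice (adjusted p = 0.0758). In V338Y mice the values were 10790 at mouse 1 and 8413, 8865 and 8302 CPM in mice 2 to 4 at 3 mo, and 4755, 5748, 4761 and 2982 CPM at 19 mo. There Mylpf was lower at 19 mo, with a fold change of -0.98 ± 0.22 (adjusted p = 0.00566).

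Tropomyosin covers the myosin-binding sites of actin at rest, and Tpm1 encodes its alpha form, which is also used in heart and smooth muscle and is counted here as a gene over all its transcripts (chr9:67022590-67049406, minus strand). Wild-type mice had 13343, 13622, 14043 and 14181 CPM at 3 mo and 11571, 9679.9 and 6686 CPM at 19 mo. V338Y mice had 14712, 15903.5, 15652 and 14557 CPM at 3 mo and 6501, 8613, 7625 and 3621 CPM at 19 mo. Mouse 5 had the lowest level in both 19 mo groups, and in V338Y mice it was well apart from the other three. The fold change was -0.57 ± 0.18 in wild-type mice (adjusted p = 0.039) and -1.19 ± 0.26 in V338Y mice (adjusted p = 0.00514).

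Actn3, alpha-actinin-3, crosslinks actin at the Z-disc of the fastest fibers (chr19:4861216-4877909, minus strand). It had the smallest fold change of the 10 in wild-type mice. In wild-type mice it was at 7696, 7454, 8070.5 and 7229 CPM at 3 mo and at 7826, 6218 and 4432 CPM at 19 mo, so the groups overlapped. The fold change of -0.30 ± 0.18 did not pass the test (adjusted p = 0.218). In V338Y mice Actn3 was at 7989.9, 8342, 8491 and 7749.6 CPM at 3 mo and at 4075, 6441, 5467 and 2635 CPM at 19 mo, with a fold change of -0.79 ± 0.26 (adjusted p = 0.0293).

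Among the calcium genes, Pvalb followed the contractile genes and Atp2a1 did not. Pvalb encodes parvalbumin, the cytosolic calcium buffer that speeds relaxation (chr15:78191114-78206400, minus strand). In wild-type mice it was at 9666, 8487, 9032 and 9378 CPM at 3 mo and at 7138, 5191 and 2703 CPM at 19 mo, the widest spread among the old wild-type mice of any member relative to its mean. In V338Y mice it was at 10885, 10013, 10796 and 9901 CPM at 3 mo and at 3561, 4853, 4179.5 and 2121 CPM at 19 mo. The fold change was -0.87 ± 0.27 in wild-type mice (adjusted p = 0.0351) and -1.49 ± 0.25 in V338Y mice (adjusted p = 0.00128).

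Atp2a1 encodes SERCA1, the calcium pump of the fast sarcoplasmic reticulum (chr7:126445858-126463108, minus strand). In wild-type mice it was at 10537, 9211, 9738 and 8912 CPM at 3 mo and at 21238, 16979 and 17419 CPM at 19 mo. In V338Y mice it was at 10832, 9489, 10549 and 9624 CPM at 3 mo and at 13033, 21743, 16666 and 13209 CPM at 19 mo. All 7 old mice were above all 8 young ones, while the V338Y mice were spread more widely at 19 mo. The fold change was 0.95 ± 0.14 in wild-type mice, a 1.93-fold higher level (adjusted p = 0.00128), and 0.69 ± 0.22 in V338Y mice, a 1.61-fold higher level (adjusted p = 0.0258).

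Casq1, the calsequestrin of fast fibers that binds calcium inside the reticulum (chr1:172209894-172219868, minus strand), was the least abundant member. In wild-type mice it was at 1932, 1754, 1619 and 1788 CPM at 3 mo and at 1603, 1188 and 753 CPM at 19 mo. The groups did not overlap, but mouse 2 at 19 mo was close to mouse 3 at 3 mo, and the fold change of -0.58 ± 0.22 did not pass the test (adjusted p = 0.0614). In V338Y mice Casq1 was at 1940.4, 1569, 1568 and 1908 CPM at 3 mo and at 948, 1451, 898 and 516 CPM at 19 mo. There the fold change was -0.86 ± 0.26 (adjusted p = 0.0228).

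**Figure D2:**
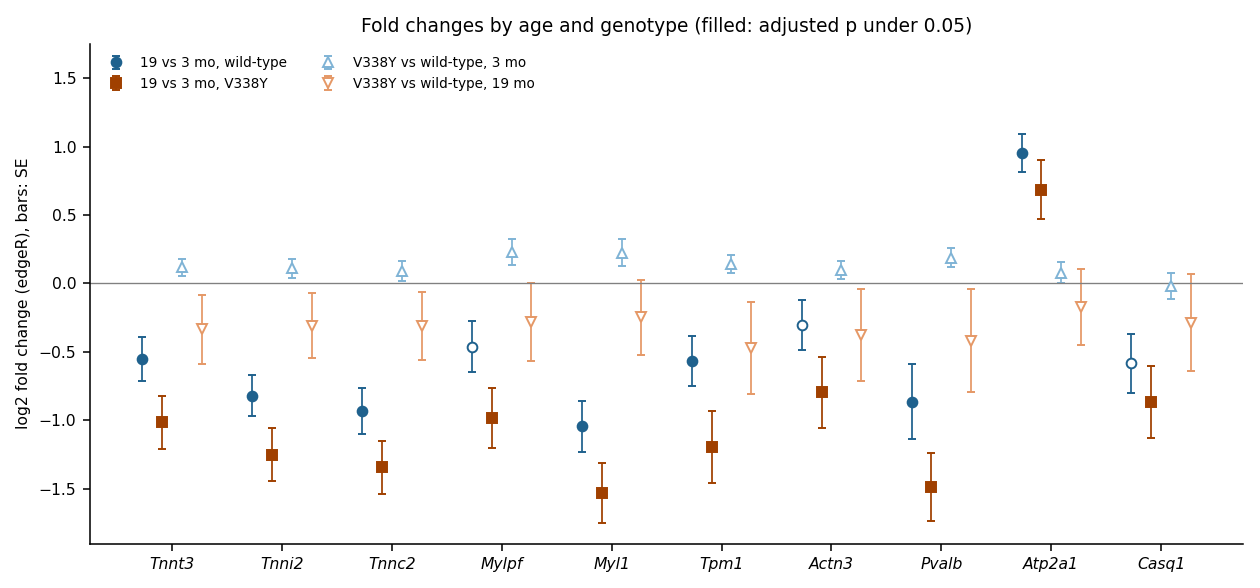
Log2 fold changes (y axis) of the 10 genes (x axis) in the 4 comparisons of 2 groups, with bars of 1 SE. Filled symbols passed an adjusted p of 0.05: 7 of 10 for age in wild-type mice, 10 of 10 for age in V338Y mice and none for genotype at either age.

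Several of these calls were near the threshold and were lost with 1 mouse fewer, mostly at about the same fold change. In wild-type mice Tnni2, Tnnc2, Myl1 and Atp2a1 passed whichever mouse was left out. The calls of Tpm1 and Pvalb were lost without mouse 4 at 19 mo or without any 1 of the 4 young mice (adjusted p from 0.0672 to 0.0871 for Tpm1 and from 0.0549 to 0.0809 for Pvalb), with fold changes of -0.61 to -0.55 for Tpm1 and -0.90 to -0.84 for Pvalb, and that of Tnnt3 without mouse 4 at 19 mo or young mouse 1, 3 or 4 (from 0.0508 to 0.068, with fold changes of -0.57 to -0.53). Without mouse 2 at 19 mo, Mylpf, Actn3 and Casq1 passed as well (adjusted p = 0.0149, 0.0343 and 0.00837), so that all 10 were called, and without mouse 5 at 19 mo the fold change of Pvalb was -0.58 in place of -0.87. In V338Y mice 7 members passed whichever mouse was left out, whereas Atp2a1 was lost without any 1 of the 4 young mice (adjusted p from 0.0563 to 0.0774, fold changes of 0.66 to 0.71), Actn3 without any 1 young mouse or mouse 2 at 19 mo (from 0.0547 to 0.0698) and Casq1 without young mouse 1 or 4 or mouse 4 at 19 mo (from 0.0517 to 0.0571). The call of Atp2a1 in V338Y mice was also lost with an offset for GC content (0.55, adjusted p = 0.0683), and that of Tpm1 in wild-type mice in a fit of all 15 mice (-0.56, adjusted p = 0.0849). In wild-type mice DESeq2 called 9 members, among them Mylpf (adjusted p = 0.0192) and Casq1 (adjusted p = 0.0147), beside 4629 genes in all. Casq1 was also called there by edgeR with no filter (adjusted p = 0.0282) and with the GC offset (adjusted p = 0.049). Leaving out both mice numbered 5, a choice made after seeing the data, repeats in each age comparison the fit without its 1 mouse numbered 5. There 7 members were called among wild-type mice, and 10 among V338Y mice. Over all genes tested, 4186 and 6391 genes were called in these fits.

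Fold changes with age also varied with gene length across the whole transcriptome. In wild-type mice the median log2 fold change was -0.26 over 1427 genes with 1000 to 2000 bases of exon and 0.27 over 2432 genes with more than 8000 bases, and in V338Y mice the same medians were -0.27 and 0.32. Of the 9 members that fell in V338Y mice, 8 have fewer than 3000 bases of exon. Tpm1 with 6485 bases fell against the median of its length class, and Atp2a1 with 3477 bases rose beyond the median of the class of 3000 to 5000 bases, whose medians were -0.03 in wild-type and 0.04 in V338Y mice. Tnnc2 with 800 bases fell against its class in V338Y mice, where genes under 1000 bases had a median of 0.06, beside -0.23 in wild-type mice. With an offset for exon length fitted in each mouse, added after seeing the data, the fold changes in wild-type mice were -0.59 for Tnni2, -0.67 for Tnnc2, -0.88 for Myl1, -0.69 for Tpm1 and 0.98 for Atp2a1, all called, while Tnnt3 (-0.33, adjusted p = 0.104) and Pvalb (-0.62, adjusted p = 0.0877) were not. In V338Y mice all members but Casq1 (-0.67, adjusted p = 0.0568) were still called with the offset. The part of length in the fold changes was otherwise not tested.

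**Figure D3:**
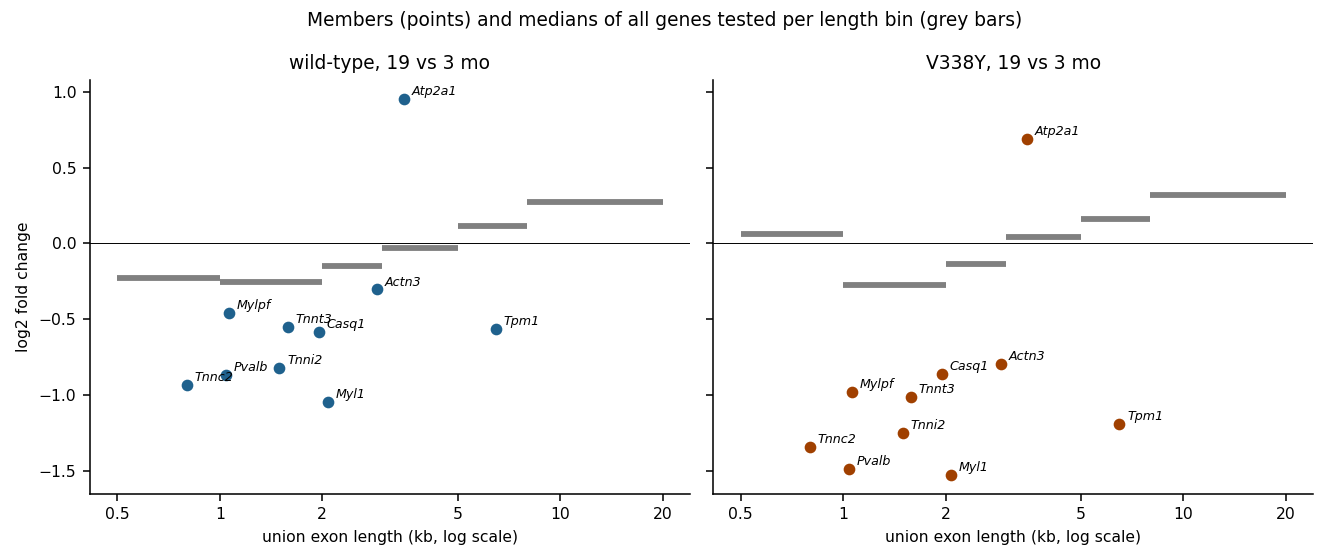
Log2 fold change with age (y axis) of the 10 members (points) against their exon length in kb (x axis, log scale), in wild-type and in V338Y mice. Grey bars are medians of all genes tested in 6 length classes, with the outer classes drawn from 0.5 kb and to 20 kb. The grey medians run from -0.26 at 1 to 2 kb to 0.27 above 8 kb in wild-type mice, and Atp2a1 is the one member above 0.

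Genes with related roles gave a mixed picture. Of the 12 other fast fiber genes kept as a list, 4 were lower at 19 mo in each genotype and none was higher in either. Of all genes tested, 17.8% were called lower and 18.3% higher in wild-type mice, and 22.5% and 24.4% in V338Y mice. The median log2 fold change of the list was -0.17 (wild-type) and -0.58 (V338Y). Eno3, the muscle enolase, fell by 0.77 on the log2 scale in wild-type mice (adjusted p = 0.00523) and Myoz1, a Z-disc protein that binds calcineurin, by 0.80 (adjusted p = 0.00864). In V338Y mice Tmod4, which caps the pointed ends of thin filaments, fell by 0.93 (adjusted p = 6.68e-04), and Myoz1 fell by 1.205 (adjusted p = 8.89e-04). Not all of the list had negative fold changes, since 4 of 12 were above 0 in wild-type and 3 of 12 in V338Y mice. The myosin heavy chain of the fastest fibers, Myh4, had fold changes of -0.20 and -0.60 that did not pass (adjusted p = 0.521 and 0.175). Those of the other fast myosins were above 0 and did not pass either, at 0.91 and 1.14 for Myh1 (adjusted p = 0.106 and 0.0964) and 1.76 and 1.41 for Myh2 (adjusted p = 0.109 and 0.119).

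Among 12 sarcomere and triad genes used in all fiber types, 4 fell and 1 rose in wild-type mice, and 7 fell and 1 rose in V338Y mice. The gene that rose was Ryr1, the calcium release channel of the sarcoplasmic reticulum, with fold changes of 0.80 ± 0.13 in wild-type mice (adjusted p = 0.00244) and 0.47 ± 0.15 in V338Y mice (adjusted p = 0.03). Tcap, the titin cap of the Z-disc, fell by 1.10 in wild-type mice (adjusted p = 0.00127) and by 1.61 in V338Y mice (adjusted p = 1.11e-04), and the reticulum protein gene Srl fell by 0.77 (adjusted p = 0.00127) and by 1.13 (adjusted p = 2.78e-04). Of 10 transcription factors tied to the fast program, 4 rose and 1 fell in wild-type mice, and 1 rose and 1 fell in V338Y mice. These counts stand beside 18.3% higher and 17.8% lower of all genes tested in wild-type mice, and beside 24.4% and 22.5% in V338Y mice, where both lie below the share of all genes. Eya4, a transcriptional cofactor, fell by 0.81 in wild-type mice (adjusted p = 0.00537) and by 0.72 in V338Y mice (adjusted p = 0.00398), and Myod1 rose by 0.75 (adjusted p = 0.0465) and by 0.99 (adjusted p = 0.00807).

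The second comparison asked whether the V338Y mutation changed the fast isoforms at 3 mo. No member was called (0 of 10), where 0.075% of the 13333 genes tested were, 10 genes in all. The differences were small and the fold changes of 9 members were above 0, with a median of 0.11 beside -0.00255 over all genes tested. At an unadjusted p under 0.05 there were 4 members, all higher in V338Y mice, where 9.7% of all genes tested reached that level: Mylpf with 0.23 ± 0.09 (adjusted p = 0.474), Pvalb with 0.19 ± 0.07 (adjusted p = 0.448), Myl1 with 0.22 ± 0.10 (adjusted p = 0.502) and Tpm1 with 0.14 ± 0.07 (adjusted p = 0.514). For Pvalb all 4 mutant mice, at 9901 to 10885 CPM, were above the 4 wild-type mice, at 8487 to 9666 CPM. Tnnt3, Mylpf and Tpm1 showed the same separation. The share of all genes that did was not counted, so the separation is given as a description only. Casq1 differed the least, with 1746 ± 206 CPM in V338Y and 1774 ± 129 CPM in wild-type mice (mean ± SD, n = 4 each). Within 2 SE, the young mutants could differ from wild-type by -0.20 to 0.17 on the log2 scale for Casq1 and by 0.05 to 0.42 for Mylpf. DESeq2 called none of the 10 either.

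At 19 mo the same comparison gave no call among the 10 members, with 0.0434% of the 13833 genes tested called, 6 genes. All 10 fold changes were below 0, from -0.47 ± 0.33 for Tpm1 (adjusted p = 0.69) to -0.17 ± 0.28 for Atp2a1 (adjusted p = 0.877), with a median of -0.31 beside 0.01 over all genes tested. None reached an unadjusted p of 0.05, a level that 8.93% of all genes tested reached, and the ranges of the genotypes overlapped for every member. Single mice moved these values by over 1.5 times: Tpm1 ran from -0.66 without wild-type mouse 5 to -0.27 without V338Y mouse 5, Pvalb from -0.72 without wild-type mouse 5 to -0.072 without wild-type mouse 2, Myl1 from -0.42 to -0.0465 without the same wild-type mice, and Atp2a1 from -0.33 without V338Y mouse 3 to -0.0597 without wild-type mouse 2. Tpm1, for example, was at 11571, 9679.9 and 6686 CPM in wild-type mice and at 6501, 8613, 7625 and 3621 CPM in V338Y mice. The intervals were wide, 2 SE reaching from -1.14 to 0.20 for Tpm1 and from -1.17 to 0.33 for Pvalb. DESeq2 called none of the 10. At 19 mo the deviations of mice with the same number had r of 0.13 to 0.38 (mean 0.24), and those of different numbers -0.37 to 0.44 (mean -0.08). The labels do not say that the numbers pair mice. As an alternative, the fit was repeated with the number as a block. It called 110 genes in place of 6 and still no member, the lowest adjusted p being 0.131. With the block 9 of the 10 members reached an unadjusted p under 0.05 in the quasi-likelihood test, the lowest being 0.00604. The share of all genes at that level was not counted for the blocked fit. In that blocked fit Tpm1 had a fold change of -0.65 and Casq1 of -0.53.

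The last comparison asked whether the change with age differed between the genotypes. No gene passed this interaction test (0% of the 14128 genes tested, with 1361 at an unadjusted p under 0.05), and thus no member. All 10 interaction terms were below 0, as were 51.7% of all genes tested, with a median of -0.48 beside -0.01 over all. They ran from -0.64 ± 0.33 for Tpm1 (adjusted p = 0.561) and -0.63 ± 0.38 for Pvalb (adjusted p = 0.607) to -0.28 ± 0.25 for Atp2a1 (adjusted p = 0.743), and none reached an unadjusted p of 0.05, the lowest being 0.0653 for Tnnt3. The fold changes with age of the 2 genotypes were thus not told apart by the test. DESeq2 called 26 genes and the fit with the mouse number as a block 28 genes for this term, and neither called a member (lowest adjusted p = 0.102 with the block). With the block 8 of the 10 members reached an unadjusted p under 0.05 in the quasi-likelihood test, the lowest being 0.00101. The share of all genes at that level was not counted for the blocked fit.

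Slow isoforms gave each mouse an internal reference, because the ratio of a fast to a slow transcript does not depend on library scaling. Of the 9 slow counterparts (Tnnt1, Tnni1, Tnnc1, Myl2, Myl3, Tpm3, Actn2, Atp2a2 and Casq2; Pvalb has none), 7 were higher in old than in young wild-type mice, whereas among V338Y mice all 9 fold changes were above 0 but none passed. The slow genes were very unequal between old mice. Myh7, the slow myosin heavy chain, was at 9.95, 181 and 319.6 CPM in wild-type mice 2, 4 and 5 and at 28.3, 0.604, 26.3 and 1209.9 CPM in V338Y mice 2 to 5 at 19 mo, whereas it was between 0.725 and 30.2 CPM in all young mice. Both mice numbered 5 thus had the highest Myh7 of their group.

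The log2 ratio of Tnnt3 to Tnnt1 counts was between 12.5 and 13.6 in young wild-type mice and between 11.2 and 13.0 in young V338Y mice. At 19 mo it was 11.9, 8.74 and 7.49 in wild-type mice 2, 4 and 5 and 10.3, 14.1, 10.8 and 5.23 in V338Y mice 2 to 5. Old V338Y mouse 3 therefore had the highest fast-to-slow ratio of all 15 mice for this pair, and V338Y mouse 5 the lowest. The ratio of Actn3 to Actn2 was between 5.01 and 5.63 in all 8 young mice, and at 19 mo it was 6.01, 4.91 and 2.12 in wild-type mice and 3.21, 4.78, 4.98 and 1.31 in V338Y mice. Actn3 to Actn2 in old wild-type mouse 2 was above every young mouse, so that the ages overlapped. For Atp2a1 to Atp2a2, which encode the fast and slow calcium pumps, the young mice lay between 7.07 and 7.87, old wild-type mice at 8.79, 7.12 and 6.37, and old V338Y mice at 7.45, 8.60, 7.65 and 4.34. The ages overlapped in this ratio, and Atp2a2 was also higher in wild-type mice at 19 mo (log2 fold change 1.27, adjusted p = 0.026). Some ratios rest on very few slow counts: in V338Y mouse 3 at 19 mo there were 2 counts of Tnnc1, for a ratio of 14.7 with an exact 95% Poisson interval from 13.2 to 18.1 that covers counting error only.

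**Figure D4:**
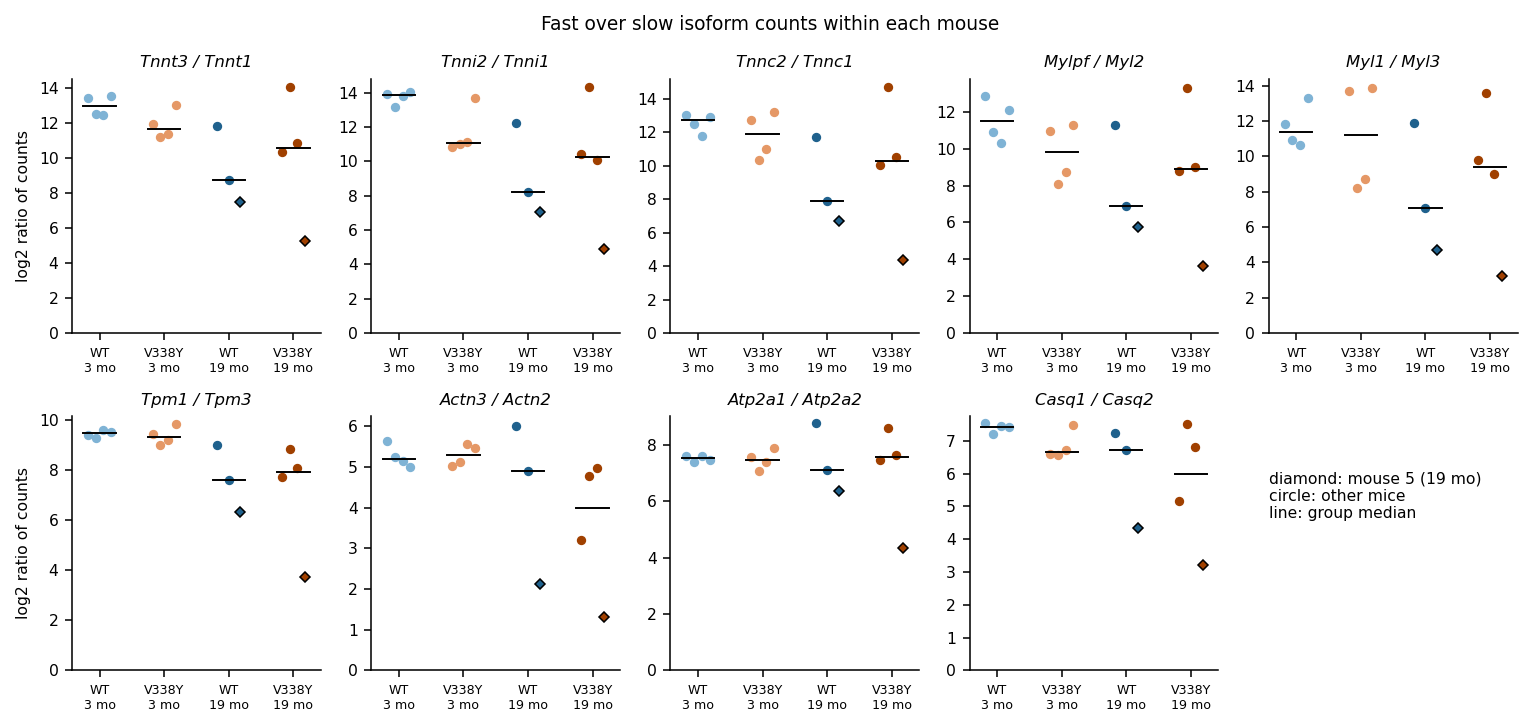
Log2 ratio of the counts of each fast member to those of its slow counterpart (y axis, from 0) in every mouse of the 4 groups (x axis), with the group median as a line. Diamonds mark mouse 5 of each 19 mo group, which has the lowest ratio of its group in all 9 pairs, down to 1.31 for Actn3 to Actn2 in the V338Y group.

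Other cell types moved with some of these values. The summed level of the 11 slow and oxidative fiber genes was 306 to 2312 CPM in wild-type mice and 401 to 4756 CPM in V338Y mice at 19 mo, against 704 to 940 and 867 to 1514 CPM at 3 mo. The 5 neutrophil genes summed to 545 CPM in V338Y mouse 5 at 19 mo, to 24.2 CPM in V338Y mouse 3 and to at most 4.42 CPM in all other mice, with Ngp at 0 in all 8 young mice, and all 5 were called higher at 19 mo in V338Y mice. The 6 adipocyte genes summed to 129 to 294 CPM in wild-type and 169.8 to 834 CPM in V338Y mice at 19 mo, against 199.6 to 708 and 109.6 to 504 CPM at 3 mo. With age 1 of the 6 was called lower in wild-type mice, where all 6 fold changes were below 0, and 2 were called higher in V338Y mice, where all 6 were above 0. Endothelial genes summed to 197 to 331 CPM in the 7 old and 143 to 178 CPM in the 8 young mice, with 2 of 5 called higher in wild-type and 3 of 5 in V338Y mice. The macrophage list summed to 133 to 225 CPM at 19 mo and 95.3 to 152 CPM at 3 mo with 3 of 5 genes called higher in each genotype, the 4 smooth muscle genes to 102 to 207 CPM and 53.4 to 80.2 CPM with 3 called higher in wild-type and 4 in V338Y mice, and the fibroblast list to 782 to 1723 CPM and 1175 to 1868 CPM with 3 of 6 genes called lower in each genotype and 1, Pdgfra, called higher in wild-type mice (0.46, adjusted p = 0.0128). The satellite cell and denervation list summed to 24.7 to 64.3 CPM at 19 mo and 17.98 to 76.2 CPM at 3 mo, and 3 of its 6 genes tested were called higher in wild-type mice, namely Ncam1 (1.18, adjusted p = 0.00157), Myh3 (2.49, adjusted p = 0.00326) and Myh8 (0.62, adjusted p = 0.0376). Of its 7 genes tested in V338Y mice, 1 was called lower and 1 higher, the latter being Ncam1 (1.58, adjusted p = 0.00618). All these counts stand beside 18.3% higher and 17.8% lower of all genes tested in wild-type mice, and 24.4% and 22.5% in V338Y mice. The part of these cell types in the fold changes of the fast isoforms was not tested.

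Within the old groups most members were high or low in the same mice, whereas young mice had small deviations of mixed sign, such as -0.17 for Myl1 and 0.14 for Atp2a1 in wild-type mouse 1. The correlations are a description over 15 mice, and the genes compared share their libraries. After each group's mean was taken off, Pearson's r over the 15 mice was between 0.57 and 0.98 for the 45 pairs of members, with a median of 0.89. The closest pair was Tnnt3 and Tnni2 with r = 0.98, both troponin genes. Atp2a1 was the least like the others, with a median r of 0.71 and a highest r of 0.81 with Tnni2. Nearly all of the spread came from the old mice: V338Y mouse 3 was above its group mean by 0.34 to 0.70 on the log2 scale for all 10 members, V338Y mouse 5 lay at -0.79 to -0.26, wild-type mouse 2 was above by 0.20 to 0.62, and wild-type mouse 5 lay at -0.78 to -0.083.

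**Figure D5:**
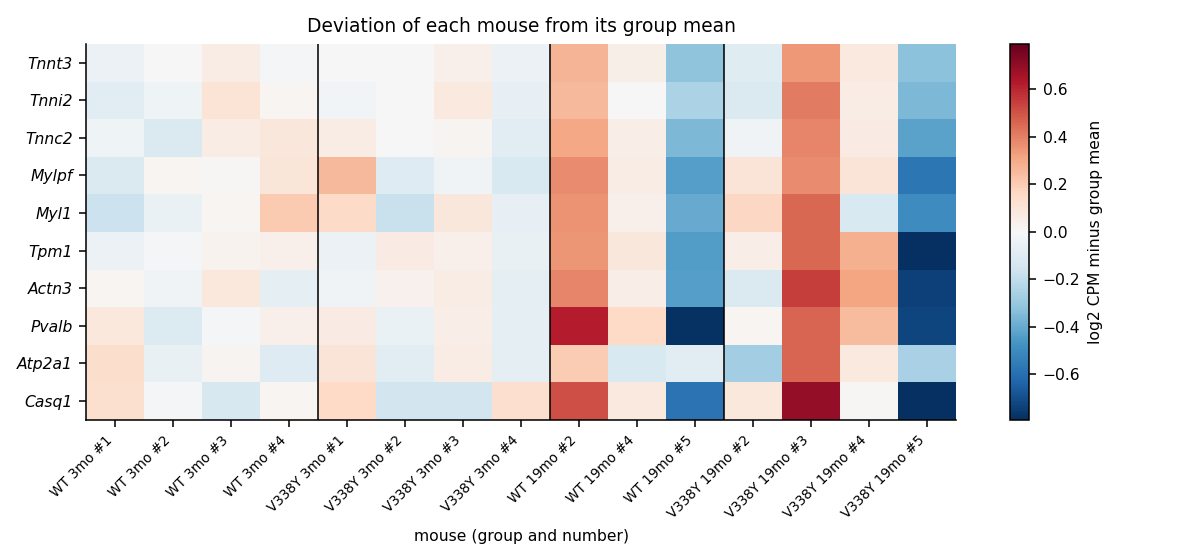
Deviation of each mouse (columns, by group and number) from its group mean for the 10 members (rows), as log2 CPM with red above and blue below 0. The 8 young mice are pale, and at 19 mo mice 2 (wild-type) and 3 (V338Y) are red and both mice numbered 5 blue for every member.

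Among 7403 genes with a mean of at least 10 CPM, the gene most like Actn3 in these deviations was Myh4 (r = 0.99), and that most like Tpm1 was Mybpc2, the fast myosin-binding protein C (r = 0.99). Myl1 was most like Pgam2, the muscle phosphoglycerate mutase (r = 0.97), Mylpf most like Mybph (r = 0.96), and Pvalb most like Mrln, which encodes the SERCA-inhibiting micropeptide myoregulin (r = 0.97). Casq1 was most like Prkag3, a regulatory subunit of AMP-activated kinase used in fast fibers (r = 0.98), Tnnc2 was most like Pip4k2b (r = 0.97) and Atp2a1 was most like Setd7 (r = 0.94). Against Myh2, the myosin of intermediate fibers, all 10 members had a negative r, from -0.98 for Pvalb to -0.57 for Atp2a1. Against Myh4 r ran from 0.78 for Atp2a1 to 0.99 for Actn3. Myh4 was at 79603.5, 59360.4 and 40204 CPM in wild-type mice 2, 4 and 5 at 19 mo. In V338Y mice 2 to 5 at 19 mo it was at 39867.8, 68758.6, 51333.1 and 22409.8 CPM, against 63121 to 72674 CPM in the young mice.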

How the data were processed

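RNA was sequenced from quadriceps muscle of 15 mice with a stranded mRNA kit, and per the labels' processing notes reads were called with CASAVA 1.8 and bcl2fastq 1.8.4 and aligned with STAR 2.4.2a. The authors deposited 1 table per mouse of RSEM expected counts per Ensembl gene, which are whole numbers in the files (39179 genes, 37607 with a symbol). The study's methods and the processing notes name different mouse builds, so positions are from GENCODE M21 (GRCm38), used by gene ID. Whether counting used strand is not given in the sources used here: Tnnt3, Tnnc2, Atp2a1 and Casq1 each overlap a gene on the other strand.

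The members and gene lists were chosen with earlier results of these data known. Low genes were removed, keeping those that reached 10 counts in 50% or more of the animals of either group compared, and the rest were tested with edgeR 4.0.16 (R 4.3.3), TMM factors and the quasi-likelihood test, with Benjamini-Hochberg adjustment over all genes tested, called under 0.05. All 10 members had at least 10 counts in every mouse and passed this filter. CPM were scaled by TMM factors over all 15 mice (0.905 to 1.21). SE was the log2 fold change divided by the root of F. Ratios were taken on counts plus 0.5, and deviations on log2(CPM + 0.5). No 2 files were identical. The labels do not say that replicates came from separate litters, so p-values measure the spread between these mice.

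Named were all 10 members in every comparison, up to 4 genes of a list by smallest p, the most alike gene of each member, Mrps5, Xist and Ddx3y, and beyond that rule, after their values were seen, Myh4, Myh7, Myh1, Myh2, Acta1, Ngp, Sln, Myl3, Myh3 and Myh8. Same-numbered 19 mo mice had r from 0.13 to 0.38 over 3 pairs in their deviations from group means, and mice of different numbers from -0.37 to 0.44. The labels do not call same-numbered mice pairs, and the number entered a blocked fit as an alternative only. The pairs of the other comparisons were not all over 0.1. On simulated counts with 200 genes changed by a log2 fold of 1, the test recovered 97.0% for age in wild-type mice (13556 genes, 2.51% of calls false), 99.5% for age in V338Y mice (13828 genes, 3.86% false) and 97.0% for genotype at 19 mo (13953 genes, 8.06% false). Every simulated gene had the same fixed spread between mice, not the spread seen in these mice, and only well-counted genes were changed. These shares thus do not give the power of the test for the members, which varied widely among the old mice. Alternatives were RLE (relative log expression) and upper-quartile scaling, scaling without the 10 most counted genes, DESeq2 1.42.0, no filter, filterByExpr, the block, all 15 mice in 1 fit, each mouse left out, an unadjusted p of 0.005 for age and, added after seeing the data, length and GC offsets, both mice numbered 5 left out and another transcript length. The result of 1 listed gene is not reported here.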

Additional observations from a re-analysis of the deposited data

How the results depend on the processing

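Most values kept their direction and their side of the threshold: 153 of 180 for age in wild-type mice (20 lost a call and 7 gained one), 175 of 190 for age in V338Y mice (15 lost a call), 177 of 180 and 179 of 180 for genotype at 3 mo and 19 mo (3 and 1 changed sign) and 250 of 250 for the interaction. In each age comparison, leaving out both mice numbered 5 repeats the fit without the 1 mouse numbered 5, and both are in these counts. For age in wild-type mice, 4 of the 10 members were called at an unadjusted p of 0.005, beside 3416 of all 13657 genes tested. With the replicate block 4 members were called, beside 2229 of the 13657 genes in place of 4940. The mouse numbers are not shown to pair mice, of the same or of different ages. DESeq2, no filter and the replicate block called 66, 33 and 14 genes for genotype at 3 mo, 62, 14 and 110 at 19 mo, and 26, 5 and 28 for the interaction, with 0 members in each case. The block changed no call of a member between genotypes. At an unadjusted p under 0.05 there were 9 members at 19 mo with the block and 0 without it. At 3 mo there were 1 with the block and 4 without it. With 1 mouse left out, the members called for age ran from 4 to 10 (wild-type) and from 7 to 10 (V338Y). All genes called for age ran from 3431 to 4837 and from 5182 to 6448 in those fits. The genes called for genotype with 1 mouse left out ran from 3 to 14 at 3 mo and from 2 to 7 at 19 mo. The fold change of Casq1 for genotype then ran from -0.0715 to 0.0313 at 3 mo and from -0.544 to 0.0034 at 19 mo, the only sign changes seen. With the median coding transcript length, Atp2a1 was at place 8 in both young groups and at place 3 in V338Y mice at 19 mo. The median r of member pairs was 0.894 with a pseudocount of 0.5 or 5. The causes of these changes were not tested.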

Other observations

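The young V338Y mice differed among themselves in slow isoforms and in embryonic myosin. Mice 2 and 3 had 30.2 and 27.2 CPM of Myh7 and 23.5 and 20.3 CPM of Myl3, the slow essential light chain, against 1.15 and 0.922 CPM of Myh7 and 0.632 and 0.461 CPM of Myl3 in mice 1 and 4. The log2 ratio of Myl1 to Myl3 was 8.23 and 8.71 in the former and 13.7 and 13.9 in the latter, beside 10.7 to 13.3 in the 4 young wild-type mice. Mouse 1 of the same group had 24.2 CPM of the embryonic myosin gene Myh3 and 27.7 CPM of the perinatal Myh8, where the other 7 young mice had 0.346 to 1.99 and 4.38 to 6.75 CPM, and the highest Mylpf of all 15 mice (10789.9 CPM). These genes were named after their values were seen.

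The calcium pump inhibitor sarcolipin varied widely among old mice. Sln, which encodes it, was at 0.286 to 2.07 CPM in the young mice and at 0.671 to 28.2 CPM in the old mice, and it rose in wild-type mice (log2 fold change 2.81, adjusted p = 7.60e-04 by edgeR's quasi-likelihood test) and in V338Y mice (3.28, adjusted p = 0.017). Its level in V338Y mouse 3 at 19 mo, 0.671 CPM, was within the young range.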
